A study of Mus musculus with 6 samples.

Results

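A set of 10 genes that act on procollagen inside the endoplasmic reticulum (ER) were followed in osteocyte-like cells given parathyroid hormone (PTH). They were P4ha1, P4ha2, P4ha3, Plod1, Plod2, Plod3, Lepre1, Crtap, Fkbp10 and Serpinh1, chosen by gene symbol, and all 10 were found among the 23700 gene entries of every library. IDG-SW3 is a mouse line from long bones of animals carrying a GFP reporter driven by the Dmp1 promoter and a temperature-sensitive T-antigen, and it matures from osteoblast to osteocyte-like cells in culture. All 6 libraries came from this 1 immortalized line after 28 days in mineralizing medium with 50 µg/ml ascorbic acid and 4 mM beta-glycerophosphate. The PTH group (n = 3) then received 50 nM bovine PTH (1-34) and the Control group (n = 3) the same volume of PBS, and total RNA was harvested 24 hours later. Levels are FPKM, sequenced fragments divided by transcript length and by the number mapped in that library.

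Collagen chains are modified while still unfolded in the ER. Prolyl 4-hydroxylases make the hydroxyproline that keeps the triple helix stable at body temperature, and they need iron, oxygen, 2-oxoglutarate and ascorbate, the last of which the medium of both groups contained. Lysyl hydroxylases make the hydroxylysine used for sugar attachment and for cross-links between collagen molecules. A complex of prolyl 3-hydroxylase 1 (Lepre1), Crtap and cyclophilin B (Ppib) hydroxylates a single proline of type I collagen chains and assists folding. Serpinh1 (HSP47) binds the procollagen helix, and Fkbp10 (FKBP65) assists its folding. In humans, loss of Lepre1, Crtap, Fkbp10 or Serpinh1 causes osteogenesis imperfecta (brittle bone disease) and loss of Plod2 causes Bruck syndrome, in which brittle bones occur with joint contractures.

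To put the genes beside their upstream sequence, the 250 bases before the annotated start were read from RefSeq (GRCm38.p6), which held such a window for 8 of the 10 genes, those other than Plod2 and Fkbp10. Lepre1 had 2 windows and was counted for a motif when either held it, whereas the background counts single windows. The 4 windows are printed because they belong to the gene that fell most, to its 2 paralogues and to a lysyl hydroxylase that rose. Capitals mark ACGTG and GCGTG on either strand, the core letters of the element bound by hypoxia-inducible factors (HIF), of which P4ha1, P4ha2 and Plod2 are known targets in other cells. The windows, written 5′ to 3′ along the strand of the gene, all the plus strand, lie at chr10:59323046-59323295 (P4ha1), chr11:54100674-54100923 (P4ha2), chr7:100285270-100285519 (P4ha3) and chr5:136986769-136987018 (Plod3).
P4ha1: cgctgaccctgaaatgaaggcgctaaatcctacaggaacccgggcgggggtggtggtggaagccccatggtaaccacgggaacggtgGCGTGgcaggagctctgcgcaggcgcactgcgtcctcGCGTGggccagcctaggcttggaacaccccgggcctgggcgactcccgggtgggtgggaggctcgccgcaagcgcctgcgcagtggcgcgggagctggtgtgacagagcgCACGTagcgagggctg
P4ha2: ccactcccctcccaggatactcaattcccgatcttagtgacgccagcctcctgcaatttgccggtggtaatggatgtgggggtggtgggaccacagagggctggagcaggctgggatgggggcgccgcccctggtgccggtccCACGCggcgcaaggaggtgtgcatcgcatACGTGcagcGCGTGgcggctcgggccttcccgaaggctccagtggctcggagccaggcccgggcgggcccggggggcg
P4ha3: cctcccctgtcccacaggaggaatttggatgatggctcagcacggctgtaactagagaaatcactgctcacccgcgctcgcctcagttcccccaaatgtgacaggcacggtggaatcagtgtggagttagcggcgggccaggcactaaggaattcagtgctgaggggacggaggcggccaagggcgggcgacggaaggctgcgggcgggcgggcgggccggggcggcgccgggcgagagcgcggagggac
Plod3: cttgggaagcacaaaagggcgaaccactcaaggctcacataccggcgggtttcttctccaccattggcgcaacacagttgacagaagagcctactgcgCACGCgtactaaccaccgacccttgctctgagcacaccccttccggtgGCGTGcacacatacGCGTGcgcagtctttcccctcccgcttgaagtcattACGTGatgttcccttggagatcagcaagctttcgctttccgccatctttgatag

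ACGTG, or its complement CACGT, was present in the windows of 5 of the 8 genes, P4ha1, P4ha2, Lepre1, Serpinh1 and Plod3, against 16.6% of all 32851 RefSeq windows of this length. GCGTG, or CACGC, was present in 6 of the 8, all but P4ha3 and Serpinh1, against 28.2% of windows. P4ha3 had neither but had 5 matches to GGGCGG or CCGCCC, letters present in 32.7% of windows and in 6 of the 8 genes. The cAMP response element TGACGTCA was in none of the 8 and in 1.55% of windows, while its first 5 letters, TGACG or CGTCA, were in P4ha2 alone and in 17.8% of windows. CCAAT or ATTGG occurred in 2 of the 8 (Lepre1 and Plod3) and TATAAA or TTTATA in 2 (Plod1 and Crtap), against 33.8% and 12.4% of windows. These matches are a description of letters and were not tested against the changes in expression. The windows of Plod3, P4ha1 and P4ha2 held both ACGTG and GCGTG, while Lepre1 had ACGTG in 1 window and GCGTG in the other.

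Without the type I collagen genes, FPKM totals were 431519 to 463721 for Control and 466367 to 481227 for PTH, and the bounds of the FPKM estimates implied 13958213 to 19043743 and 22479950 to 24481480 fragments. Pearson correlation between libraries over the 11900 entries tested was 0.957 to 0.965 within groups and 0.880 to 0.892 between them. The median log2 change of these entries was 0.15, so each change below is also read relative to it. Of 9 osteoblast and osteocyte markers 8 were lower with PTH and none higher, against 23.5% and 50.3% of all entries tested. All 9 were above 0.1 FPKM in Control, where Sost was 53.3 ± 5.09 FPKM against 0.094 ± 0.041 in PTH, and Dmp1 was 827 ± 24.2 FPKM in Control (SD, n = 3) and 3.64 ± 0.236 in PTH. All 6 adipocyte markers were present and lower with PTH, their summed FPKM being 522 to 727 in Control and 74.9 to 150 in PTH. Tendon and fibroblast markers summed to 381 to 439 and 203 to 240 FPKM, mostly Fmod (390 ± 28.5 and 193 ± 21.4), and of 5 tested 3 fell, Scx was not called and Dpt rose from 0.681 ± 0.088 to 6.35 ± 0.701. Chondrocyte markers summed to 162 to 176 and 50.4 to 63.3 FPKM, mostly Comp (139 ± 9.32 and 40.3 ± 6.63), with 3 of 4 tested lower, Sox9 higher (8.10 ± 0.454 and 12.9 ± 0.277) and Col9a1 and Matn1 under 0.1 in all libraries. Muscle markers summed to 13.7 to 14.2 and 18.8 to 19.5, mostly Acta1 (12.3 ± 0.187 and 18.4 ± 0.437), with Myod1, Myog and Myh3 under 0.1. Mean Des was lower in PTH (1.16 and 0.306). Macrophage markers summed to 1.93 to 2.10 and 2.07 to 3.10 with Ptprc, Emr1 and Itgam under 0.1. Within them mean Cd68 was 1.02 and 2.20 FPKM, whereas Fcgr3 (0.624 and 0.0138) and Csf1r (0.359 and 0.226) were lower in PTH. The part of these cell types in the results below was not tested, and in whole cultures fewer cells of a type cannot be told apart from less RNA per cell.

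The 10 genes did not move together. With PTH, 6 fell, namely P4ha1, P4ha2, Lepre1, Crtap, Fkbp10 and Serpinh1, 3 rose, namely P4ha3, Plod2 and Plod3, and Plod1 passed in neither direction (limma on log2(FPKM + 1), Benjamini-Hochberg adjusted p under 0.05 over all entries tested). Because 73.8% of all 11900 entries passed this test, 50.3% as higher and 23.5% as lower, 9 of 10 is not far from the background. By size, all 9 changed at least 1.5-fold, as did 21.1% of entries (11.9% higher and 9.16% lower), a limit chosen after the values were seen. P4ha2 and Serpinh1 stood just beyond this limit (log2 change 0.585), each at -0.606. With 1 library left out they came as near to 0 as -0.576 and -0.571, short of it. P4ha1 alone changed at least 2-fold, against 9.24% of entries in either direction and 4.82% that fell, and Plod2, Plod3, Crtap (lower) and P4ha3 stood just below that limit at 1.99-fold, 1.93-fold, 1.91-fold and 1.91-fold. Crtap passed 2-fold under median-of-ratios scaling (log2 change -1.06), quantile normalization (-1.01) and, narrowly, TPM. In the deposited FPKM P4ha1 stood alone with all libraries, but Plod2 also passed without Control replicate 1 (+1.02). The median log2 change of the 10 was -0.61.

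**Figure D1:**
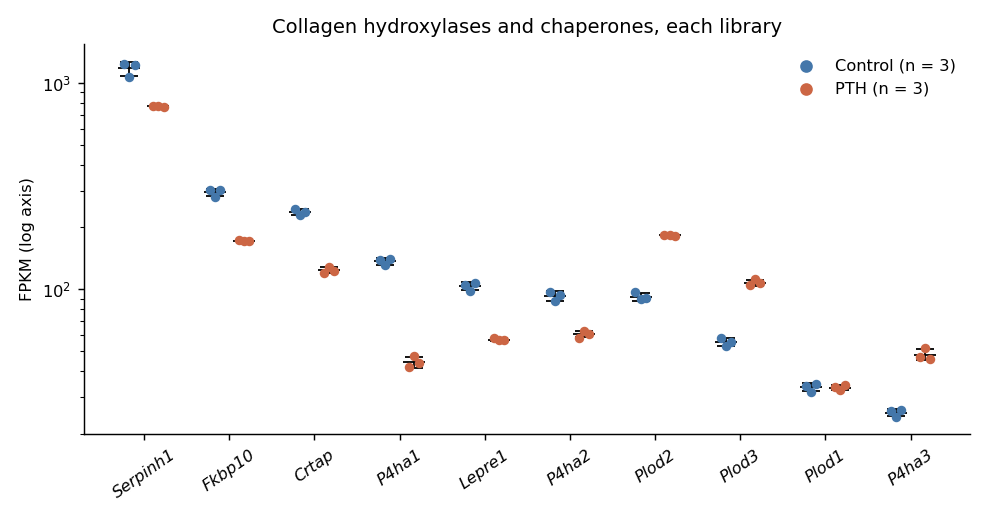
FPKM of the 10 genes in each library on a log axis, ordered by their Control mean, with 3 Control points (blue) and 3 PTH points (orange) per gene and black marks at the mean ± SD. The groups are apart for 9 genes, as they are for 78.3% of all entries tested, and overlap for Plod1. P4ha1 drops from 131 to 140 FPKM in Control to 41.9 to 47.4 in PTH.

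P4ha1, which encodes the main catalytic alpha subunit of prolyl 4-hydroxylase in many cells, measured 138, 131 and 140 FPKM in Control replicates 1, 2 and 3 and 41.9, 47.4 and 43.9 FPKM in PTH replicates 1, 2 and 3. The lowest Control library was well above the highest PTH library. Its mean was 136 ± 5.01 FPKM in Control and 44.4 ± 2.77 in PTH (SD, n = 3), a 3.07-fold lower level, and the log2 change was -1.60 ± 0.052 (SE, adjusted p = 7.15e-07). Only 2.73% of entries tested had a more negative change. In rank of FPKM among all entries it went from place 481 to place 1730.

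P4ha2 encodes a second alpha subunit, common in chondrocytes and osteoblasts. It measured 96.7, 87.5 and 94.4 FPKM in Control and 58.4, 62.6 and 61.0 after PTH. The groups did not overlap, and the fall was smaller than that of P4ha1: 1.53-fold, with a log2 change of -0.61 ± 0.047 (adjusted p = 3.94e-05). P4ha3, the least abundant of the 3 alpha subunit genes in Control, went the other way. Its FPKM was 25.6, 24.2 and 26.0 in Control and 47.1, 51.8 and 46.0 after PTH. Every PTH library was above every Control library, and the log2 change was +0.91 ± 0.053 (adjusted p = 9.91e-06), with 5.78% of entries changing more in the upward direction.

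The 3 genes together summed to 255 ± 10.4 FPKM in Control and 153 ± 7.51 in PTH (SD, n = 3), 1.66-fold lower. Within each library, P4ha1 made up 53.6% ± 0.505 of the summed alpha subunit FPKM in Control and 28.9% ± 0.433 in PTH. The share of P4ha3 went from 9.93% ± 0.0724 to 31.5% ± 0.851, and that of P4ha2 from 36.5% ± 0.577 to 39.6% ± 0.869. Thus P4ha1, the largest of the 3 in Control, was the smallest in PTH, although its PTH libraries overlapped those of P4ha3 in FPKM. A share within a library does not change when that library is rescaled. The 3 shares did not overlap between the groups, and for each the exact two-sided permutation test gave p = 0.10, the smallest value that 3 against 3 libraries allow (0.11 after Benjamini-Hochberg adjustment over the 13 shares and ratios compared here).

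P4hb, protein disulfide isomerase, is the beta subunit that holds the alpha subunits in solution and also works apart from them. It was 606 ± 23.4 FPKM in Control and 720 ± 3.39 after PTH, a log2 change of +0.25 ± 0.040 (adjusted p = 0.0013). With quantile normalization its change was +0.05 and no longer passed (adjusted p = 0.131, 0.000277 to 0.131 over the 3 scalings). The summed alpha subunits stood at 0.420 ± 0.00551 of P4hb in Control and 0.213 ± 0.0107 in PTH, with no overlap between groups (exact permutation p = 0.10, adjusted 0.11).

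**Figure D2:**
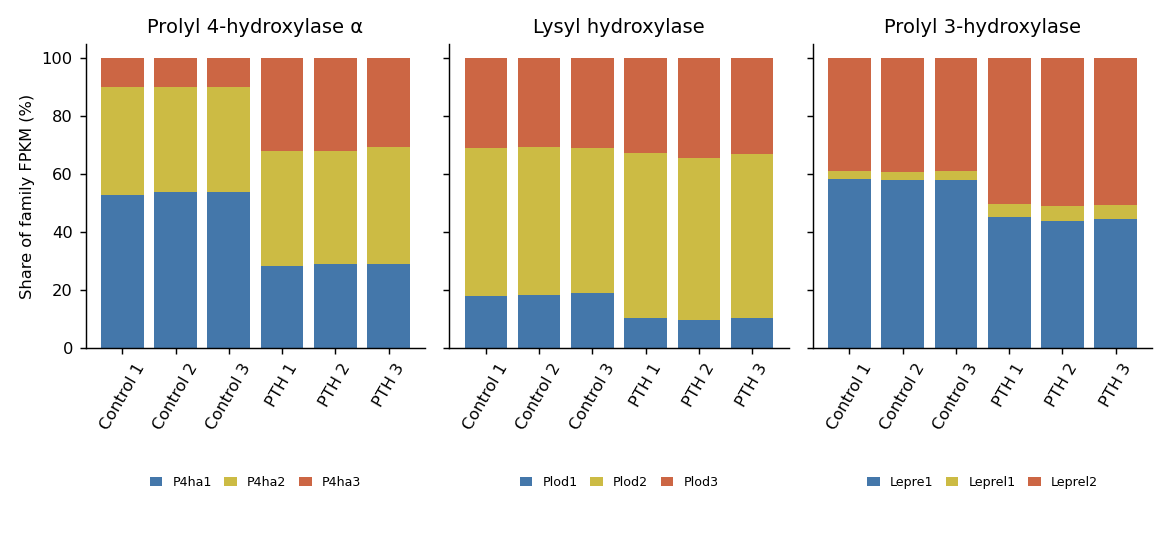
Stacked bars give the share (%) of each gene in the summed FPKM of its enzyme family in each of the 6 libraries, for the prolyl 4-hydroxylase alpha subunits, the lysyl hydroxylases and the prolyl 3-hydroxylases. The P4ha1 segment shrinks from a mean of 53.6% in Control to 28.9% in PTH while the P4ha3 segment grows from 9.93% to 31.5%, and the Plod1 segment shrinks from 18.5% to 10.3%.

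Among the lysyl hydroxylases the rise lay in Plod2 and Plod3. Plod2 (LH2) hydroxylates lysines in the telopeptides, the step that sets the type of cross-link. It measured 96.5, 89.3 and 90.3 FPKM in Control and 184, 183 and 182 after PTH. The PTH libraries were nearly equal and far above Control, with means of 92.0 ± 3.91 and 183 ± 0.920 FPKM (SD, n = 3). The log2 change was +0.98 ± 0.037 (adjusted p = 1.31e-06), and Plod2 went from place 718 to place 377 among all entries by FPKM.

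Plod3 (LH3) hydroxylates lysine and also adds the sugars to hydroxylysine. It measured 58.1, 53.1 and 55.8 FPKM in Control and 105, 112 and 107 after PTH. The groups did not overlap, and the log2 change was +0.94 ± 0.044 (adjusted p = 3.66e-06). Its 5′ end shares 864 bases of its locus with Znhit1, which lies beside it and was itself at 28.1 ± 1.29 FPKM in Control and 43.5 ± 1.95 in PTH. The library kit does not mark strand, so reads from the shared stretch cannot be assigned to one gene or the other, and the part of Znhit1 in the value of Plod3 was not tested.

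Plod1 (LH1), which hydroxylates lysines of the helix, measured 34.1, 31.9 and 34.6 FPKM in Control and 33.5, 32.5 and 34.3 after PTH. The PTH libraries lay within the range of the Control libraries, and the log2 change was -0.0047 ± 0.041 with a 95% interval from -0.10 to 0.09 (adjusted p = 0.923). This value sits below the median change of all entries, by -0.15, and the call depends on how the libraries are scaled. Plod1 was called lower after median-of-ratios scaling (log2 change -0.13, adjusted p = 0.00731), quantile normalization (-0.14, adjusted p = 0.00312) and conversion to TPM (-0.07, adjusted p = 0.0462), and adjusted p ran from 0.00312 to 1.0 over its 14 alternatives. The sign turned to 0.0079 without Control replicate 1, 0.018 without Control replicate 3 and 0.014 without PTH replicate 2.

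Summed over the family, lysyl hydroxylase FPKM was 181 ± 7.26 in Control and 324 ± 3.18 in PTH (SD, n = 3), 1.79-fold higher. Plod2 was the largest member in every library, with a share of 50.8% ± 0.720 in Control and 56.5% ± 0.590 in PTH. The share of Plod3 was 30.7% ± 0.232 and 33.2% ± 0.839, and that of Plod1 18.5% ± 0.568 and 10.3% ± 0.354. Since the prolyl 4-hydroxylase sum fell while the lysyl hydroxylase sum rose, their order was exchanged. The ratio of the lysyl sum to the prolyl alpha subunit sum was 0.725, 0.718 and 0.693 in Control and 2.18, 2.03 and 2.14 after PTH. It was below 1 in every Control library and above 2 in every PTH library (exact permutation p = 0.10, adjusted 0.11). This ratio was chosen after the values were seen.

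The 3 components of the prolyl 3-hydroxylation complex all fell. Lepre1, the enzyme, measured 105, 98.1 and 107 FPKM in Control and 58.0, 56.5 and 56.8 after PTH. Crtap, the helper protein without which the enzyme is lost, measured 246, 228 and 237 FPKM in Control and 121, 128 and 123 in PTH. Both genes had groups well apart, with Lepre1 at a log2 change of -0.85 ± 0.040 (adjusted p = 3.59e-06) and Crtap at -0.93 ± 0.041 (adjusted p = 2.70e-06). Ppib, a prolyl isomerase that also serves other secreted proteins, was 340 ± 21.0 FPKM in Control and 297 ± 4.98 after PTH, a log2 change of -0.19 ± 0.050 (adjusted p = 0.012).

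Crtap and Lepre1 fell by nearly the same factor, 1.91-fold and 1.81-fold. The ratio of Crtap to Lepre1 was 2.33, 2.32 and 2.21 in Control and 2.08, 2.26 and 2.16 after PTH. These ranges overlapped, and the exact permutation test gave p = 0.20, which leaves a difference of this size undecided with 3 libraries a group. The other prolyl 3-hydroxylases had smaller log2 changes than Lepre1. Leprel2 was 69.2 ± 3.15 FPKM in Control and 64.6 ± 0.857 in PTH (log2 change -0.10, adjusted p = 0.0632) and was called lower under each of the 3 other scalings (adjusted p 0.000563 to 0.00298). Leprel1 was low, at 5.04 ± 0.510 and 6.17 ± 0.298 FPKM, with a log2 change of +0.25 (adjusted p = 0.0142) that did not pass after median-of-ratios scaling (+0.14, adjusted p = 0.0937) or quantile normalization (+0.17, adjusted p = 0.0523).

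The share of Lepre1 in the 3 enzymes was 58.3% ± 0.243 in Control and 44.6% ± 0.637 in PTH, and that of Leprel2 38.9% ± 0.145 and 50.5% ± 0.421. Leprel2 thus overtook Lepre1 after PTH. The family sum was 178 ± 8.36 FPKM in Control and 128 ± 0.938 in PTH, 1.39-fold lower.

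Serpinh1, the collagen-specific chaperone that leaves the ER with procollagen and is returned by KDEL receptors, was the most abundant of the 10 genes in every library. It measured 1231, 1070 and 1225 FPKM in Control and 774, 773 and 764 after PTH. All PTH libraries lay below all Control libraries. The level was 1.53-fold lower with a log2 change of -0.61 ± 0.062 (adjusted p = 0.000143), and Serpinh1 went from place 28 to place 88 among all entries. Its Control libraries were more spread (coefficient of variation 7.78%) than its PTH libraries (0.703%).

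Fkbp10 is a prolyl isomerase and chaperone that works with LH2 in telopeptide lysyl hydroxylation. It measured 302, 281 and 303 FPKM in Control and 173, 171 and 172 after PTH. The groups were far apart, and the log2 change was -0.77 ± 0.039 (adjusted p = 4.67e-06), opposite in sign to that of Plod2. The ratio of Plod2 to Fkbp10, also chosen after the values were seen, was 0.320, 0.318 and 0.298 in Control and 1.06, 1.07 and 1.06 after PTH. It therefore passed from well under 1 to just over 1 with no overlap (exact permutation p = 0.10, adjusted 0.11). Fkbp10 shares 2520 bases of its locus with Nt5c3l, which was 34.8 ± 3.41 FPKM in Control and 32.8 ± 0.619 in PTH.

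Ordered by FPKM, the Control libraries ran Serpinh1, Fkbp10, Crtap, P4ha1, Lepre1, P4ha2, Plod2, Plod3, Plod1 and P4ha3. Of these neighbours only P4ha2 and Plod2 overlapped over libraries. In the PTH libraries the order was Serpinh1, Plod2, Fkbp10, Crtap, Plod3, P4ha2, Lepre1, P4ha3, P4ha1 and Plod1, and only P4ha3 and P4ha1 overlapped. P4ha1 moved from the fourth place to the ninth and Plod2 from the seventh to the second. Control replicate 2, the library with the fewest implied fragments, was the lowest Control library for all 10 genes, while no PTH library was lowest for more than 4.

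Relative to the median change of all entries, P4ha1 changed by -1.75 on the log2 scale and the other 5 genes that fell by between -0.75 (Serpinh1 and P4ha2) and -1.08 (Crtap). The genes that rose did so by 0.76 (P4ha3), 0.79 (Plod3) and 0.84 (Plod2) above it. Median-of-ratios scaling brought the median of all entries from 0.15 to 0.03, quantile normalization to 0.04 and TPM to 0.08. Each of the 9 called genes kept its direction and its call under these scalings, under the other pseudocount and filters, and with any 1 library left out. The widest range among them was that of Serpinh1, from -0.76 to -0.57.

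**Figure D3:**
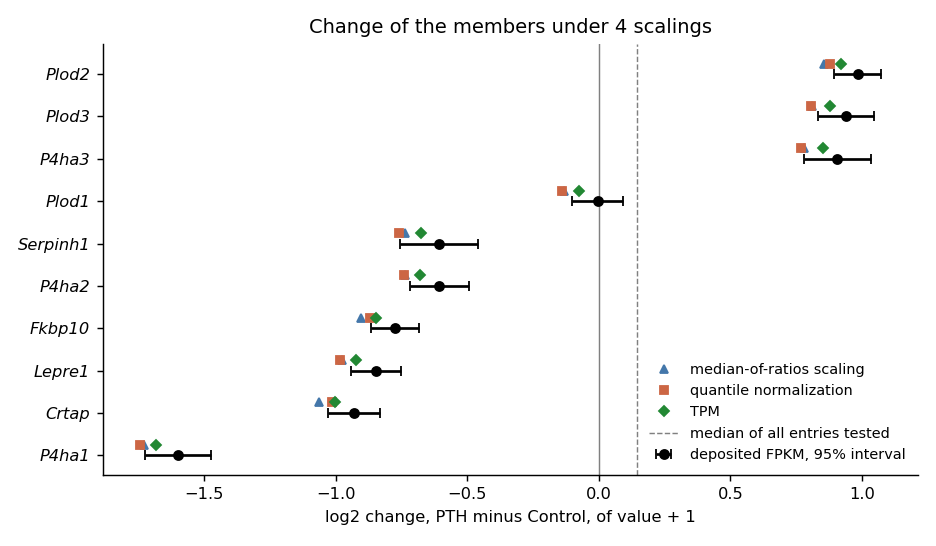
Log2 change (PTH minus Control) of each gene from the deposited FPKM with its 95% interval (black) and the estimates after median-of-ratios scaling, quantile normalization and TPM (coloured). The dashed line marks the median of all 11900 entries, 0.15. The 9 called genes stay on their side of 0, and Plod1 lies at -0.0047 in the deposited FPKM and between -0.14 and -0.07 under the other scalings.

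The genes lie on 6 chromosomes (mm9). P4ha1 is at chr10:58786044-58836052, P4ha2 at chr11:53914426-53945169, P4ha3 at chr7:107434030-107468209 and Serpinh1 at chr7:106493885-106501749. Plod1 is at chr4:147283862-147310885, Plod2 at chr9:92437061-92503265, Plod3 at chr5:137462889-137472516, Lepre1 at chr4:118905520-118921582, Crtap at chr9:114284249-114299830 and Fkbp10 at chr11:100277008-100286154. Serpinh1 and P4ha3, which changed in opposite directions, are 932280 bases apart. Fkbp10 begins 874 bases from Leprel4, a non-enzymatic relative of Lepre1 that binds Leprel2 and LH1 in the mouse, and both fell: Leprel4 was 100 ± 4.02 FPKM in Control and 71.9 ± 1.69 in PTH (log2 change -0.47 ± 0.039, adjusted p = 5.17e-05).

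Genes that work beside the hydroxylases mostly fell. Of 10 partners 9 were tested, and 6 fell, 2 rose (P4hb and Leprel1) and 1 was not called (Leprel2). Among all entries tested, 23.5% were called lower and 50.3% higher. The median log2 change of the partners was -0.32 against 0.15 over all entries, and P4hb and Leprel1 each stood only 0.10 above the latter. Fkbp14 (FKBP22, an ER prolyl isomerase) went from 68.9 ± 1.44 to 37.8 ± 1.23 FPKM (log2 change -0.85) and Slc39a13 (the zinc transporter ZIP13, whose loss in humans leaves collagen lysines underhydroxylated) from 81.4 ± 2.29 to 50.3 ± 0.392 (-0.68). Leprel4, Tmem38b (an ER cation channel, -0.39), Glt25d1 (the collagen galactosyltransferase, -0.32) and Ppib fell less. Glt25d2, its paralogue, had a mean under 1 FPKM and was not tested.

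Procollagen is too large for ordinary transport vesicles and leaves the ER with the help of dedicated cargo receptors and a COPII coat. Of 8 genes of this export and of KDEL retrieval, 6 fell, against 23.5% of all entries, and Klhl12 rose (+0.33), against 50.3%. Ctage5 was not called (-0.06, adjusted p = 0.192) but was called lower under the 3 other scalings (adjusted p 0.00368 to 0.0336). The median log2 change of the 8 was -0.41. Sec23a and Sec24d, COPII coat subunits, changed by -0.80 and -0.42 on the log2 scale. All 3 KDEL receptors fell: Kdelr3 from 134 ± 9.60 to 75.8 ± 2.74 FPKM (-0.81), Kdelr2 from 181 ± 6.72 to 118 ± 1.29 (-0.61) and Kdelr1 from 136 ± 6.88 to 102 ± 2.15 (-0.41).

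The fibrillar collagen chains, substrates of these enzymes, moved both ways. Of 11 chains 9 were tested, and 5 fell and 4 rose (23.5% and 50.3% over all entries), with a median of -0.36. Col3a1 went from 763 ± 61.2 to 2003 ± 212 FPKM (log2 change +1.39), Col5a3 changed by +0.89, while Col2a1 changed by -2.72, Col11a2 by -2.54 and Col24a1 by -1.68. Col1a1 and Col1a2, the type I collagen chains and the main substrate in bone, are listed at 0 in all 3 Control libraries because the authors' software gave no estimate for loci with very many fragments. In the PTH libraries they were 5757 ± 137 and 5546 ± 214 FPKM. No fold change of type I collagen, and no ratio of the enzymes to it, could therefore be given. Among the single libraries the missing estimates lay in Control, and what this means for the level there was not tested. In the authors' pooled FPKM, 1 value per group, both genes are listed at 0 in Control and at 0 in PTH. The paper states that its RNA sequencing showed Col1a1 lowered by PTH.

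Other osteogenesis imperfecta genes, 14 of 15 tested, had 10 that fell and 4 that rose (23.5% and 50.3% over all entries) with a median of -0.40. The largest falls were those of Ifitm5 (-6.13, an osteoblast membrane protein), Fam46a (-3.12) and Sp7 (-2.25, the osteoblast transcription factor osterix), followed by Creb3l1, an ER-bound transcription factor, from 254 ± 8.16 to 86.8 ± 0.796 FPKM (-1.54). Bmp1, the procollagen C-proteinase, rose from 116 ± 2.06 to 180 ± 2.93 (+0.62). This list shares Ppib, Tmem38b, Sec24d and Kdelr2 with the lists above. Sparc was called lower at -0.57, and also at -0.70 with median-of-ratios scaling and -0.64 with TPM. It turned to +0.25 with quantile normalization alone. Its FPKM was 9521 ± 245 in Control and 6427 ± 229 in PTH, while its place by FPKM among entries tested went from 4 to 2. Mesdc2 was called higher at +0.09, which is below the median change of all entries. It turned to -0.03 with median-of-ratios scaling and -0.05 with quantile normalization.

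General ER chaperones had small changes. All 13 were tested, and their log2 changes lay between -0.34 (Dnajc3) and +0.43 (Hyou1) with a median of -0.04, so that none reached 1.5-fold. Hspa5 (BiP), named after its values were seen, was 392 ± 8.32 FPKM in Control and 382 ± 1.23 in PTH (log2 change -0.04, adjusted p = 0.319) and was called lower under each of the 3 other scalings (adjusted p 0.000797 to 0.00904). Of the 13, 5 were called lower and 4 higher, against 23.5% and 50.3% of all entries. These calls followed the scaling: 9, 9 and 8 were lower and 1, 1 and 2 higher under median-of-ratios scaling, quantile normalization and TPM. Calr, called higher at +0.14, turned to -0.04 with quantile normalization, and Manf, called higher at +0.11, to -0.02 with median-of-ratios scaling and -0.03 with quantile normalization. In the deposited FPKM both already stood slightly below the median change of all entries. The count of lower calls was 3 without Control replicate 3 and 3 without PTH replicate 1.

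HIF targets outside the collagen pathway had no common direction. Of 14 genes 13 were tested, and 6 rose, 6 fell (50.3% and 23.5% over all entries) and Egln1 was not called, with a median of 0.03. Hk2 (hexokinase 2) went from 8.61 ± 0.429 to 30.6 ± 0.167 FPKM (+1.72) and Slc2a1 (the glucose transporter GLUT1) from 9.64 ± 0.818 to 16.3 ± 0.287 (+0.71), whereas Ndrg1 (-1.46), Ankrd37 (-1.35) and Egln3 (-1.33) fell. P4ha1 and P4ha2 fell and Plod2 rose beside them.

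**Figure D4:**
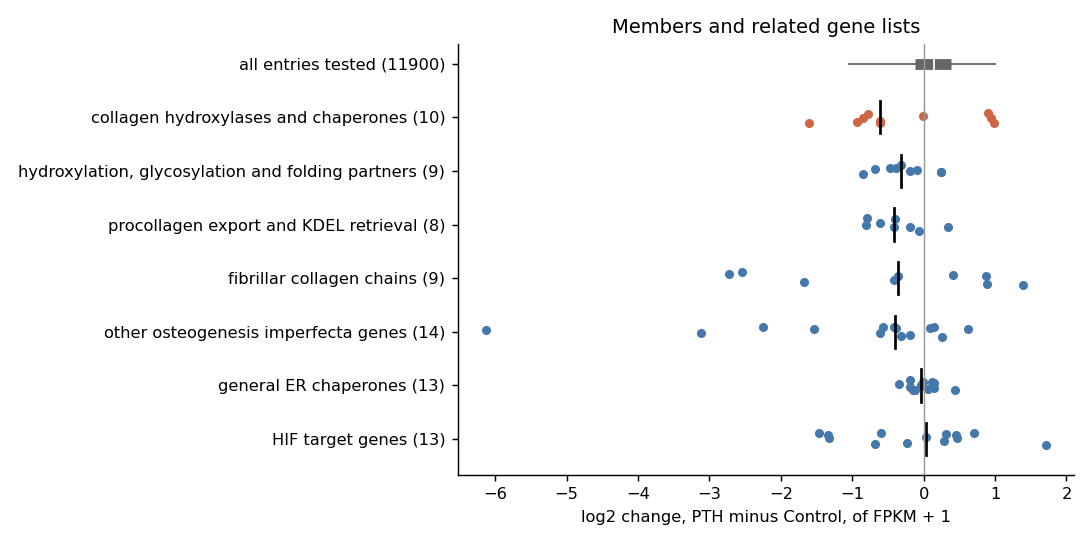
Log2 change (PTH minus Control) of each tested gene in the 10 genes of the report (orange) and in 6 related lists (blue), with the number tested in brackets and a black line at each median. The grey bar spans the 25th to 75th percentile of all 11900 entries and the thin line the 5th to 95th (-1.04 to 1.00). Medians run from -0.61 for the 10 genes to 0.03 for HIF targets, and general ER chaperones spread over the narrowest range, from -0.34 to 0.43.

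The authors also deposited 1 pooled FPKM per group. In these values P4ha1 was 144 in Control and 42.6 in PTH, Plod2 97.1 and 175, Serpinh1 1240 and 737, and Plod1 35.5 and 32.1. The bounds given for each library's estimate were within 0.859% to 6.31% of the value for the 10 genes. They imply 1004 (P4ha3) to 54246 (Serpinh1) fragments per gene and library, so the error given by these bounds was small beside most of the changes. Serpinh1, with the most implied fragments of the 10 genes, and P4ha3, with the fewest in Control, both had groups that did not overlap. Over all entries 78.3% did not overlap.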

How the data were processed

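RNA from 6 wells (3 Control, 3 PTH) was sequenced from TruSeq RNA v2 libraries barcoded on 1 lane. Nothing states whether the wells were grown as independent cultures. The p-values therefore reflect well-to-well spread only, and this may be technical. Per the submitters' processing notes, CASAVA 1.8, TopHat, Bowtie2, SAMtools and Cuffdiff were used with build mm9, and the gene annotation was not given in the sources used here. The authors deposited FPKM per gene and library with lower and upper bounds, and 1 pooled FPKM per group. Their own fold change, p and q columns were not used.

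A minimum mean of 1 FPKM left 11900 of 23700 entries, tested with limma 3.58.1 (R 4.3.3) on log2(FPKM + 1), which understates changes of low genes, with group as the only term and a variance trend. Benjamini-Hochberg adjustment covered all entries, and genes were called below 0.05. Col1a1 and Col1a2 were left out. Fragments were implied from the width of the bounds, taken as 2 SE to each side. The deposited bounds concern the estimate within 1 library, whereas the 95% intervals of log2 changes come from the spread between libraries in the limma fit. The bounds do not follow counts alone. At 184 and 183 FPKM, Plod2 had 14307 and 9560 implied fragments in PTH replicates 1 and 2, whereas P4ha1 had 4655 and 5430. Implied fragments are therefore not counts of reads. Shares and ratios were compared by exact two-sided permutation over libraries (scipy 1.17.1). The pipeline was tested on simulated data. Alternatives were median-of-ratios scaling, quantile normalization, TPM, a pseudocount of 0.1, no filter, a minimum of 5, no variance trend, a replicate block, each library left out, and implied fragments for shares. All 10 members were named, and from each other list up to 5 called genes with the largest change and those that touch a member directly. Genes named outside this rule include Sparc, Mesdc2, Calr and Manf, whose sign changed with the scaling. Members and lists were chosen with earlier results of these data known. Coordinates are mm9 from the files. Promoter windows came from RefSeq (GRCm38.p6), another build, and were matched by symbol (Lepre1 as P3h1).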

Additional observations from a re-analysis of the deposited data

How the results depend on the processing

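Called genes among the 10 numbered 3 higher in all 14 alternatives and 6 lower in 11, with Plod1 as the added lower call under median-of-ratios scaling, quantile normalization and TPM. Plod1 ran from -0.040 to 0.018 when 1 library was left out, reversing to 0.0079 without Control replicate 1, 0.018 without Control replicate 3 and 0.014 without PTH replicate 2. Partners called higher numbered 1 with median-of-ratios scaling, 0 with quantile normalization (limma) and 1 with no filter, against 2. Other osteogenesis imperfecta genes called higher numbered 2 with median-of-ratios scaling and 2 with TPM, against 4. General ER chaperones called higher numbered 1, 1 and 2 under median-of-ratios scaling, quantile normalization and TPM, against 4, and those called lower 9, 9 and 8, against 5, with 3 when no filter was applied and 3 to 6 when 1 library was left out.

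With implied fragments in place of FPKM, which weights genes by length, the difference in share (PTH minus Control, percentage points) was -27.3 for P4ha1, 5.45 for P4ha2, 4.24 for Plod2, 4.36 for Plod3, -12.2 for Lepre1, 1.79 for Leprel1 and 10.4 for Leprel2, against -24.7, 3.11, 5.68, 2.52, -13.6, 1.99 and 11.6. The change in the ratio of the alpha subunit sum to P4hb was -0.279 against -0.207, in the lysyl to prolyl ratio 1.76 against 1.40 and in the Plod2 to Fkbp10 ratio 0.779 against 0.752. This setting for the last pair of ratios was added after seeing the data. Implied fragments also follow whatever else widens the bounds, so the weighting is not by length alone.

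The labels give replicate numbers without saying whether wells were paired. Same-numbered Control and PTH libraries deviated with correlations of -0.0789, 0.0016 and -0.0377, which cannot decide this with 3 libraries a group. With the replicate number as a block, 5869 entries were higher and 2731 lower, against 5988 and 2791, and 3 and 6 of the 10 genes kept their calls. With 3 libraries a group, no exact test could fall below 0.10.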
